A study of Mus musculus with 4 samples.

Results

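The genes of the AP-1 transcription factors Fos, Fosb, Fosl1, Fosl2, Jun, Junb, Jund and Atf3 were examined for RNA polymerase II (Pol II) peaks in mouse osteoblasts, and they are 8 of 21883 protein-coding genes on the assembled nuclear chromosomes. They were taken by name, with earlier results of these data known. A peak was assigned to a gene when it lay inside the gene boundaries of GRCm38 or within 10 kb outside them. Pol II occupancy had been mapped by ChIP-seq, which sequences the DNA that an antibody pulls down with a crosslinked protein. The 4 samples were 1 Pol II library and 1 input from osteoblasts treated with OSS_128167, an inhibitor of the chromatin deacylase SIRT6, and 1 Pol II library and 1 input from untreated osteoblasts. Both cultures were primary cells that the labels call young, grown out of pieces of bone, purified as marrow mesenchymal stem cells and induced in osteogenic medium. Strain, dose, treatment time and number of animals are not given in the labels. The untreated group rests on a title that names WT osteoblasts without the compound, since the treatment field names OSS_128167 for all 4 samples. The peak lists of both Pol II libraries were used, and no list of an input. Neither condition was replicated, so every difference between the lists compares a pair of libraries and no test between the conditions was possible.

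AP-1 factors are dimers of basic leucine zipper proteins that bind the sequence TGANTCA. Jun proteins pair with themselves or with Fos proteins, whereas Fos proteins need a Jun partner, and Atf3, a stress-inducible member of the ATF family, can pair with Jun proteins. Fos, Fosb, Jun, Junb and Atf3 are immediate early genes, which serum, growth factors or stress induce without new protein synthesis. In bone, an excess of Fosl1 or of a short FosB form increases bone mass in mice, and Fosl2 promotes matrix production by osteoblasts.

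The promoters of Fos and Junb are shown because a long Pol II peak ran across their starts, that of Jun because peaks lay in the gene and not over its start, and that of Atf3 because the gene had no peak. Each is the 250 bases before the annotated start, 5′ to 3′, from RefSeq on GRCm38.p6. Capitals mark matches on either strand to the AP-1 site TGANTCA, to its longer relative TGACNTCA, to the cyclic AMP response core TGACGT, to the TATA box TATAAA, to the CCAAT box, to the GC box GGGCGG or to the CArG box, the element bound by serum response factor. A match to the cyclic AMP response core can be part of a match to the longer relative of the AP-1 site.
Fos (chr12:85473640-85473889, plus strand): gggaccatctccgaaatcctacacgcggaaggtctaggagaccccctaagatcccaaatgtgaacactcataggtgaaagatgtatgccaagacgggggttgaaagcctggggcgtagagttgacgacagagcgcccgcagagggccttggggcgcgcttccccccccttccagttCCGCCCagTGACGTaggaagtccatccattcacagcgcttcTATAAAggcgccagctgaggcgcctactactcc
Junb (chr8:84978749-84978998, minus strand): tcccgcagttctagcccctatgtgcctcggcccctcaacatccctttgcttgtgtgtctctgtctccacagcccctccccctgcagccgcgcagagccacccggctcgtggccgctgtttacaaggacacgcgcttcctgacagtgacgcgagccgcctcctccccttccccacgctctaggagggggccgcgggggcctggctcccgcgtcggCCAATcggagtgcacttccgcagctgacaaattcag
Jun (chr4:95052223-95052472, minus strand): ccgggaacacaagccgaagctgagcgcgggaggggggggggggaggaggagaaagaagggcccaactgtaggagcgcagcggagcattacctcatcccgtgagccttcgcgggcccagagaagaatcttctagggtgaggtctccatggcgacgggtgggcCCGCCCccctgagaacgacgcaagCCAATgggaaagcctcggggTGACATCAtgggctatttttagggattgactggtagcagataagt
Atf3 (chr1:191183334-191183583, minus strand): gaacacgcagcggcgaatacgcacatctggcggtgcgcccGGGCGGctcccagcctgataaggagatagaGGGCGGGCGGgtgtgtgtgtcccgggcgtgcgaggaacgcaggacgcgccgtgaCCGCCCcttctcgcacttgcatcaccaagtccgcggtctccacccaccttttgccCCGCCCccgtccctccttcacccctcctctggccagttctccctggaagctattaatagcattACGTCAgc

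Of the 8 members 7 had a promoter entry, and no entry was used for Fosl1. In the Fos promoter the cyclic AMP response core lay at bases 185 to 190 of the printed run, and the TATA box at bases 218 to 223. The core in Atf3 lay on the opposite strand at bases 243 to 248. Jun held TGACATCA at bases 206 to 213, a match to the longer relative of the AP-1 site, and the CCAAT box was found in Jun and Junb. Of 21262 protein-coding promoter windows of this length, 7.37% held the cyclic AMP response core, 7.25% the longer relative of the AP-1 site, 11.6% the TATA box, 35.4% the CCAAT box and 42.6% the GC box, which Fos, Fosb, Fosl2, Jun and Atf3 held. The AP-1 site (6.13% of windows) and the CArG box (1.39%) had no match in the windows of the 7 members. Bases farther from the start were not searched, so these genes may hold either element outside the window. A match is a run of letters and not a measured binding site.

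Pol II peaks were listed inside 7 of the 8 AP-1 genes in the OSS_128167 library and inside 0 of 8 in the untreated library. Atf3 alone had none in either. The 1 peak inside Fosl1 also lay inside Ccdc85b, an overlapping gene, and cannot be assigned to either gene. Among all protein-coding genes 34.4% (7538 of 21883, exact 95% interval 33.8 to 35.1, counting error only) had a peak inside in the OSS_128167 list, against 2.18% in the untreated one. Of the 12240 genes no longer than Fosl2, the longest member, 18.0% had one in the OSS_128167 list. With the 10 kb flanks the members numbered 7 of 8 and 0 of 8, and all protein-coding genes 53.9% and 3.13%. The untreated count of 0 is near that background and is not a result about the members.

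The lists differed in size throughout. The OSS_128167 list held 40748 peaks with a median fold of 2.87, and the untreated list 1694 with a median fold of 3.26. A fold here is the authors' enrichment of a peak within its own list, and peaks were not compared in fold between lists. An FDR of at most 0.05, also the authors' value, was met by 6568 and 109 peaks. Of 8 osteoblast markers 4 (Col1a1, Col1a2, Runx2 and Sp7) had a peak inside or within 1 kb in the OSS_128167 list, all 4 also at that FDR, and 2 (Runx2 and Col1a2) in the untreated list, where 0 met it. Alpl, Bglap, Spp1 and Ibsp had none in either. In the OSS_128167 list 4 of 6 macrophage markers (Cd68, Adgre1, Ptprc and Itgam) had a peak by this rule, 2 of them at that FDR, as had 3 of 4 endothelial markers (0 at that FDR) and 0 of 4 adipocyte markers, against 37.8% of protein-coding genes. In the untreated list Pparg was the 1 gene of these other cell types with a peak. The part of other cell types in the peaks at the AP-1 genes was not tested. Pol II at a gene in fewer cells and less Pol II per cell cannot be told apart in such libraries.

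**Figure D1:**
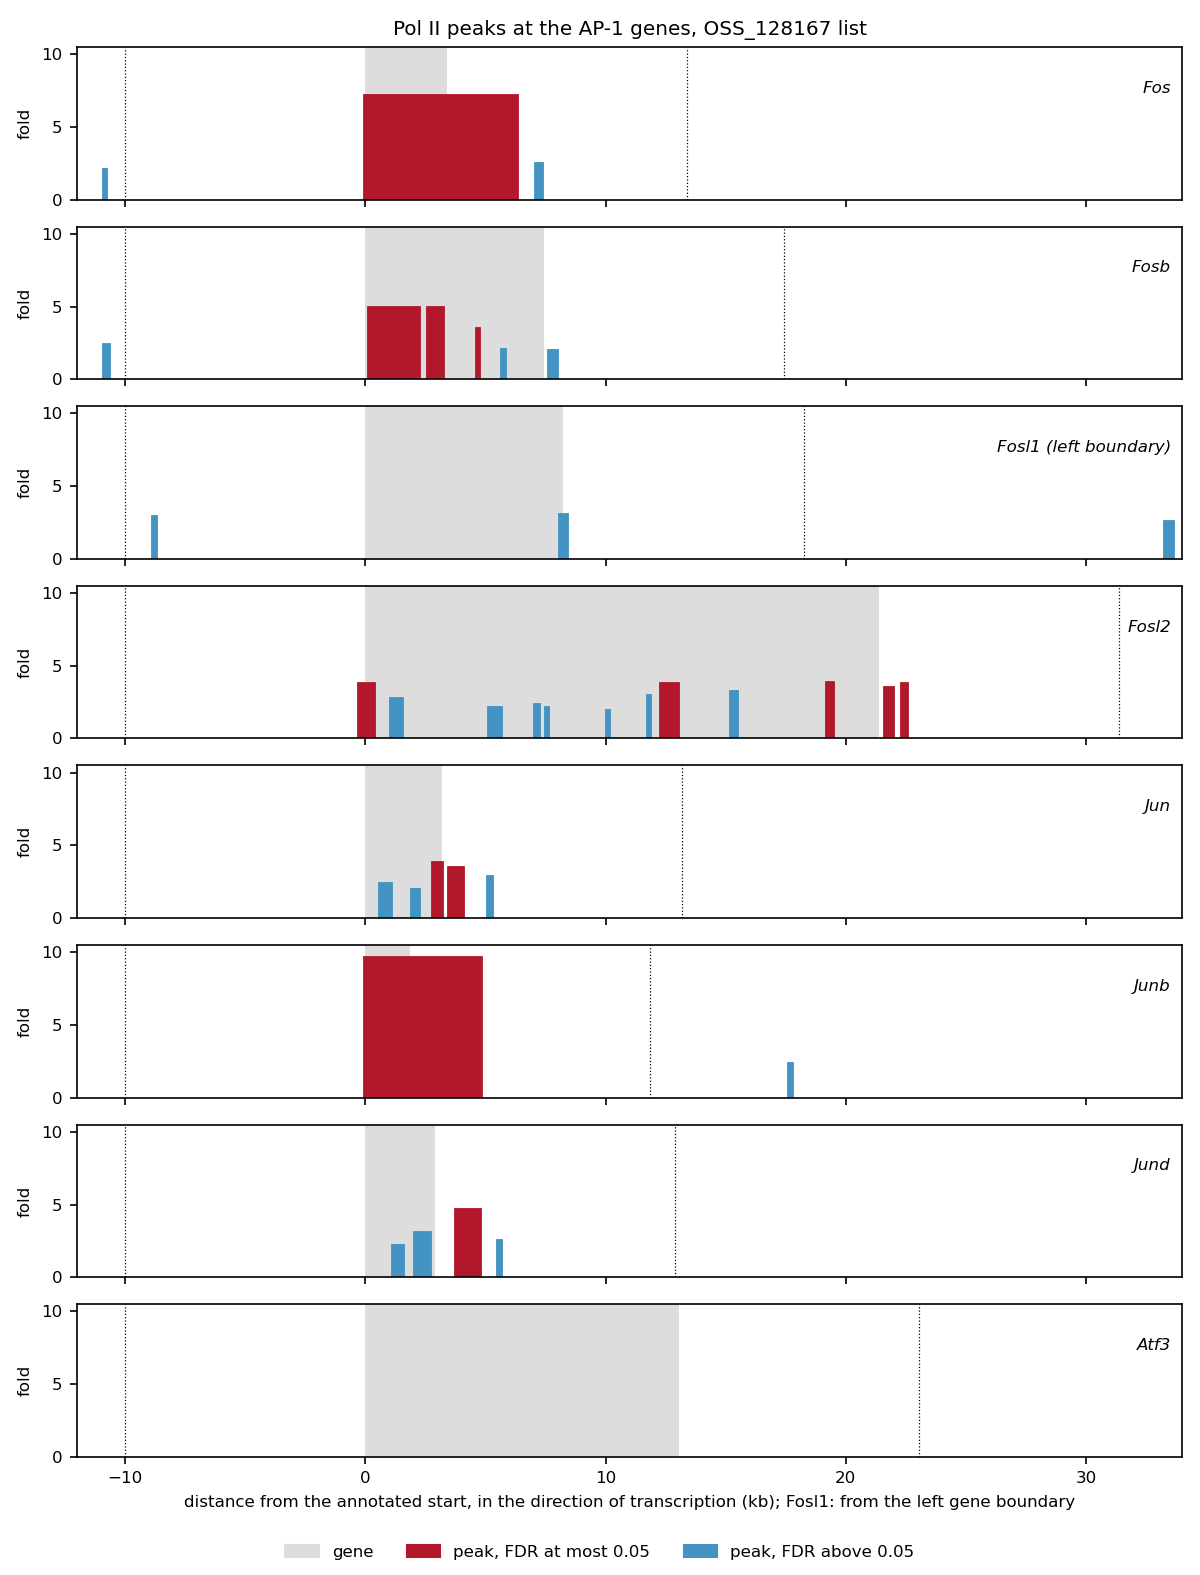
Pol II peaks of the OSS_128167 list at the 8 AP-1 genes, with distance from the annotated gene boundary at the start in kb on the x axis, in the direction of transcription (for Fosl1, from its left boundary), and peak fold on the y axis. Grey marks the gene, dotted lines the 10 kb limits, red peaks an FDR of at most 0.05 and blue peaks a higher one; Fos and Junb are covered whole by 1 peak, Atf3 is empty, and the untreated list had no peak in these windows.

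Among the Fos members, Fos had the longest peak. Fos, the founding member and partner of Jun proteins, lies on chromosome 12 from 85473890 to 85477274, plus strand. In the OSS_128167 list a single peak of 6458 bp with a fold of 7.24, an FDR of 1.1e-12 and a pileup of 24 covered 100.0% of the gene. It began 123 bp before the annotated start, at base 128 of the printed promoter, and ended 2950 bp past the 3′ end. It was the 24th longest of the 40748 peaks. A further peak of 402 bp lay 3618 bp past the 3′ end (fold 2.62, FDR 0.464). The nearest untreated peak on the chromosome was 30254810 bp away.

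Fosb, which also gives a shorter protein without the C-terminal activation domain, lies on chromosome 7 from 19302696 to 19310118, minus strand. Peaks covered 45.8% of it in the OSS_128167 list. A peak of 2207 bp (fold 5.03, FDR 6.36e-05, pileup 13) ran over the annotated start, which lies 73 bp inside the gene boundary, and reached 9 bases into the promoter window. The next, of 739 bp, had the same fold, FDR and pileup. Towards the 3′ end the values were lower, with a peak of fold 3.59 (FDR 0.05), 1 of fold 2.16 (FDR 0.966) and 1 of fold 2.11 (FDR 0.966) that lay 145 bp past the 3′ end. The peaks of higher fold at Fosb thus lay nearer to its start than to its 3′ end.

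Fosl1 and Fosl2 encode Fra-1 and Fra-2, which lack the C-terminal activation domain of Fos. Fosl1 lies on chromosome 19 from 5447698 to 5455938, and its strand was not used here. Its 1 peak in the OSS_128167 list, of 451 bp with a fold of 3.13 and an FDR of 0.0619, covered 2.91% of the gene. All 451 bp of that peak also lay inside Ccdc85b, a gene on the minus strand that overlaps Fosl1, so the peak cannot be assigned to either. A peak of 234 bp (fold 3.03, FDR 0.155) lay 8679 bp beyond the left boundary of Fosl1 and in no annotated gene.

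Fosl2, on chromosome 5 from 32136472 to 32157840, plus strand, had the most peaks. In the OSS_128167 list 10 peaks lay inside it, with folds of 2.05 to 3.97, and they covered 19.4% of its length. Of 12240 protein-coding genes no longer than Fosl2, 9 including Fosl2 itself had 10 or more. The peak over the start (727 bp, fold 3.87, FDR 0.00967) held all 250 bases of the promoter window. The other peaks inside that met an FDR of 0.05 had folds of 3.85 (FDR 0.0103) and 3.97 (FDR 0.00432). A further pair lay 188 bp (fold 3.61, FDR 0.0212) and 909 bp (fold 3.91, FDR 0.0052) past the 3′ end, in no other gene. Separate peaks of low FDR were therefore found at the start, in the body and past the end of Fosl2, parts that a single long peak spanned at Fos.

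Among the Jun members, Junb had the highest fold of all 8 genes. Junb, whose product forms AP-1 with Fos proteins and tempers activation by Jun, lies on chromosome 8 from 84976909 to 84978748, minus strand. In the OSS_128167 list a peak of 4926 bp with a fold of 9.76, an FDR of 3.23e-25 and a pileup of 39 covered 100.0% of it. That fold ranked 30th of the 7538 protein-coding genes with a peak inside, and the fold of Fos ranked 71st. The peak began 93 bp before the start, at base 158 of the printed promoter, and ended 2993 bp past the 3′ end. Its far end covered 896 bp of Prdx2, a peroxiredoxin gene on the plus strand whose 3′ end faces that of Junb. The start of Prdx2 lay 4294 bp from the peak, and Prdx2 had no other peak.

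Jun, the AP-1 subunit that can bind DNA as a pair with itself or with Fos, lies on chromosome 4 from 95049036 to 95052222, minus strand. Peaks covered 45.1% of it in the OSS_128167 list. From start to end the 3 peaks inside had folds of 2.48 (FDR 0.29), 2.08 (FDR 0.569) and 3.90 (FDR 0.00116). The first of these began 505 bp after the start, so 0 bases of the printed Jun promoter lay in a peak. The last ran 58 bp past the 3′ end, and it was followed by a peak 206 bp past that end (fold 3.61, FDR 0.0212) and another at 1823 bp (fold 2.99, FDR 0.231). The peaks of Jun that met an FDR of 0.05 thus lay at and past its 3′ end. Junos, a long non-coding RNA gene on the plus strand that begins 95 bp from the start of Jun, held no peak within this window.

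Jund, which many cell types express without stimulation, lies on chromosome 8 from 70697739 to 70700616, plus strand. Peaks covered 45.7% of it in the OSS_128167 list, with folds of 2.26 (FDR 0.642) and 3.17 (FDR 0.0546). The nearest to the annotated start lay 1044 bp from it. A peak of 1146 bp with a fold of 4.76 and an FDR of 8.58e-05 lay 798 bp past the 3′ end, and another of 226 bp at 2577 bp (fold 2.65, FDR 0.327). Both lay inside Iqcn, a gene on the same strand, and the first began 93 bp after the annotated start of Iqcn. Pol II leaving Jund and Pol II at Iqcn cannot be told apart from these peaks.

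Atf3, on chromosome 1 from 191170296 to 191183333, minus strand, had no peak inside or within 10 kb in either list. Its nearest peak in the OSS_128167 list lay 16345 bp upstream (226 bp, fold 2.67, FDR 0.413). The nearest untreated peak was 1494185 bp away. For the other members the nearest untreated peaks lay 315999 bp (Junb) to 30254810 bp (Fos) away, and each of the 8 had an FDR of 1.0. At the edge of the 10 kb window, the farthest peak kept was that at 8679 bp from Fosl1, and the nearest left out lay 10648 bp upstream of Fosb and 10766 bp upstream of Fos.

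By fold, the order in the OSS_128167 list was Junb, Fos, Fosb, Fosl2, Jun, Jund and Fosl1. By the pileup of the highest peak inside, it was Junb (39), Fos (24), Jun (15) and Fosb (13), then Fosl2, Jund and Fosl1 at 12 each. Jun moved up when height was read in place of fold. The files hold no spread for these values, so neighbours in either order are not shown to differ.

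**Figure D2:**
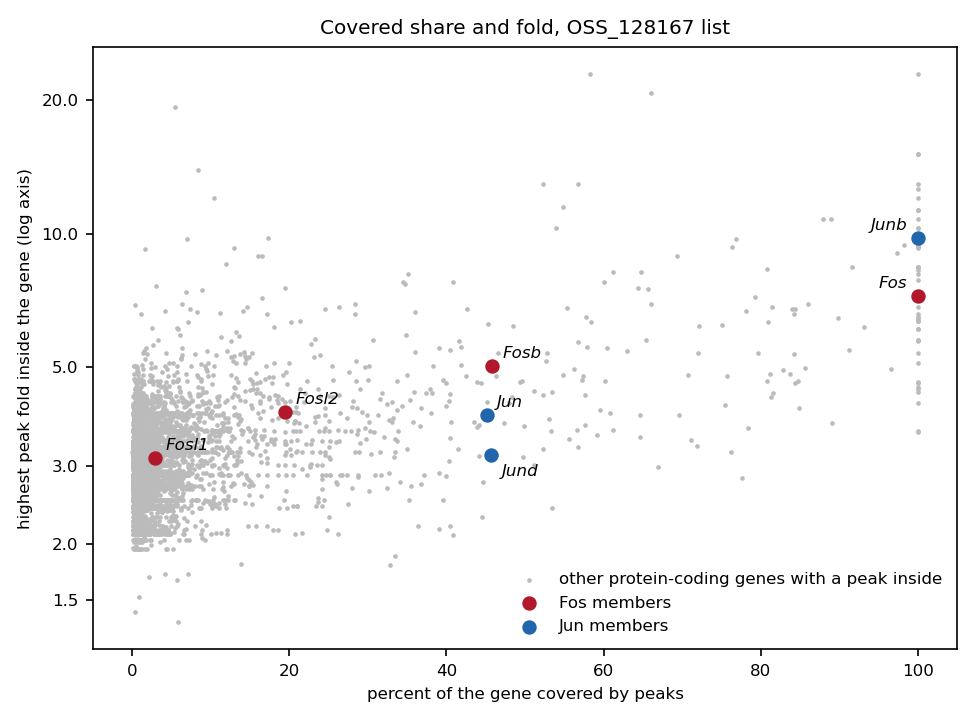
Percent of the gene covered by peaks (x axis) against the highest peak fold inside the gene (y axis, log scale) for the 7538 protein-coding genes with a peak inside in the OSS_128167 list. Each point is a gene; Fos and Junb lie at 100.0% covered, Fosb, Jun and Jund between 45.1% and 45.8%, Fosl2 at 19.4% and Fosl1 at 2.91%.

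The covered share was high at 5 of the 8 AP-1 genes in the OSS_128167 list. At least 20% was covered in Fos, Fosb, Jun, Junb and Jund, against 1.72% of protein-coding genes. With peaks of an FDR of at most 0.05 the count was 3 (Fos, Fosb and Junb), against 1.07%, since Jun had 13.8% covered and Jund 0%. That level was chosen after the peaks had been seen, and Fosl2 lay just under it. The median over the 8 members was 45.4%, against 0 for all protein-coding genes and 1.02% for those with a peak inside. The members had a median length of 5404 bp, against 17170 bp for all protein-coding genes. A peak of a given length covers a larger share of a shorter gene, and the backgrounds for covered share were not matched for length. Fos and Junb were covered whole, as were 0.256% of protein-coding genes (56). Of these 56 genes 42 have histone symbols, and their median length was 503 bp. Only 2 of the 56 were longer than Fos. In the untreated list all 8 members had 0% covered, as did the median gene.

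At an FDR of at most 0.05, 5 of the 8 members kept a peak inside (Fos, Fosb, Fosl2, Jun and Junb), against 9.97% of protein-coding genes in that library. With the flanks the count was 6, Jund being added, against 18.3%. At the stricter limit of 1e-05 the peaks of Fos and Junb remained, against 1.1% of genes with a peak inside. In the untreated list the counts at the first limit were 0 of 8 for members and 0.114% for protein-coding genes with a peak inside.

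The values of Fos and Jun members overlapped. In the OSS_128167 list the covered shares of the 4 Fos members ran from 2.91% to 100.0% with a median of 32.6%, and those of the 3 Jun members from 45.1% to 100.0% with a median of 45.7%. The difference of the medians, Fos minus Jun, was -13.2 percentage points, and at an FDR of at most 0.05 it was 11.3, with medians of 25.1% and 13.8%. The highest folds ran from 3.13 to 7.24 in Fos members and from 3.17 to 9.76 in Jun members, so these ranges overlapped too. Fos members are longer, at 3385 to 21369 bp against 1840 to 3187 bp, and held 16 peaks inside against 6. With 4 and 3 genes chosen by name, these values are a description and were not tested.

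The annotated start lay under a peak in Fos, Fosb, Fosl2 and Junb, which are 4 of the 7 members with a strand, against 1.8% of 17491 protein-coding genes in the OSS_128167 list. The starts of Jun, Jund and Atf3 did not. A peak over the 3′ end was found in Fos, Jun and Junb, 3 of 7, against 2.44%. The reach past the 3′ end, 2950 bp at Fos and 2993 bp at Junb, ranked 31st and 30th of the 427 genes with a peak over this end, whose median reach was 305 bp. At Jun it was 58 bp. In the untreated list 0 of 7 members had a peak over either end, against 0.0172% of genes for the start and 0.0343% for the 3′ end.

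**Figure D3:**
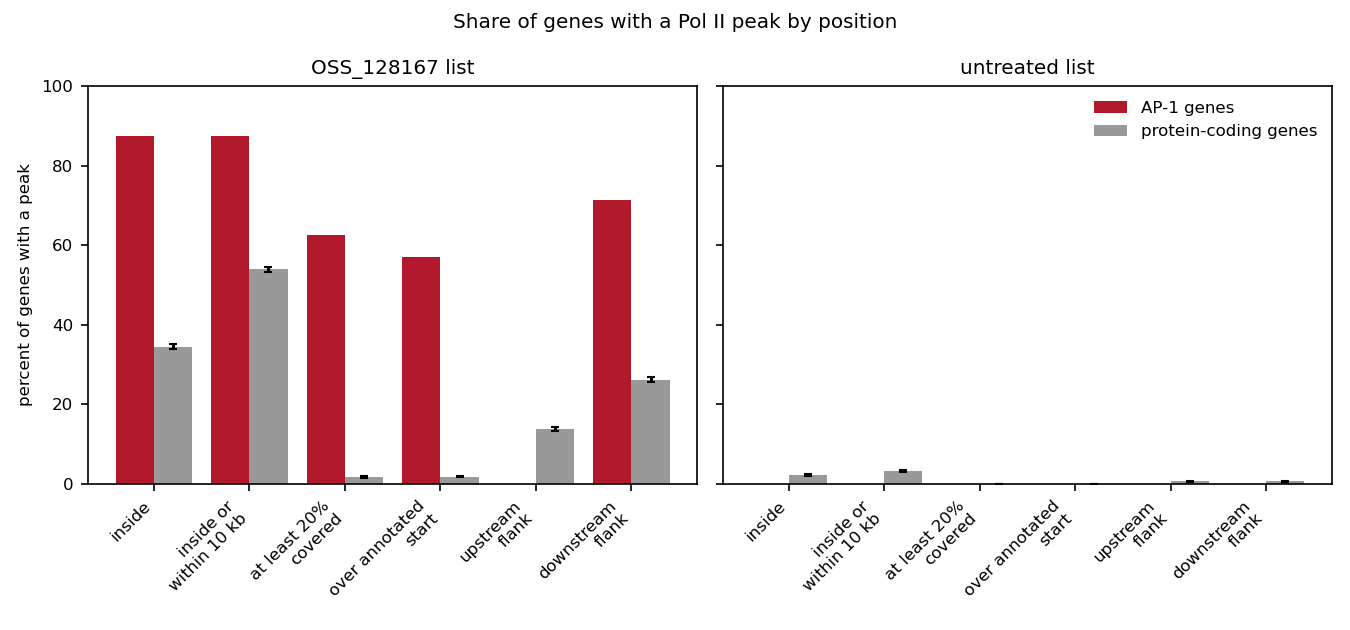
Percent of genes with a Pol II peak (y axis) by position (x axis), for the AP-1 genes (red) and all protein-coding genes (grey, bars with exact 95% intervals that cover counting error only), in the OSS_128167 list on the left and the untreated list on the right. The last 3 positions use the 7 members and 17491 genes with a strand. In the OSS_128167 list the members reach 87.5% for a peak inside, against 34.4% of genes. That share counts Fosl1, whose peak also lies inside Ccdc85b. The members stand at 0% for the upstream flank, near the 13.7% of genes given that 7 members were counted.

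All 8 flanking peaks of members with a strand lay downstream in the OSS_128167 list. The flanks of 6 of the 8 members held 9 peaks, against 35.9% of protein-coding genes with a flanking peak, and the ninth was at Fosl1, whose side was not assigned. The members with a downstream peak were Fos, Fosb, Fosl2, Jun and Jund, 5 of 7, against 26.2% of protein-coding genes, and 0 of 7 had an upstream one, against 13.7%. Downstream peaks prevailed among all genes too, where they made up 69.8% of 11151 flanking peaks, so the side is not particular to the AP-1 genes. Among genes with a strand and a peak inside, 39.1% had a downstream peak and 15.1% an upstream one. In these genes 75.9% of the flanking peaks lay downstream. Of the 9 flanking peaks 7 lay in no other annotated gene, namely those of Fos, Fosb, Fosl1, Fosl2 and Jun, and 4 of the 9 had an FDR of at most 0.05 (both of Fosl2, 1 of Jun and 1 of Jund). These are 3 of 8 members, against 11.4% of protein-coding genes. The folds of all 9 flanking peaks ran from 2.11 to 4.76. The peaks carry no strand and no mark of enhancers was measured, so a possible enhancer cannot be told apart here from Pol II that has passed the gene end. Within 10 kb no upstream peak was listed that could be an enhancer of a member with a strand. With 7 genes, that count of 0 is near the background of 13.7% and is not a result about the members. The side of the flanking peak of Fosl1 is unknown, so that peak may lie upstream.

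**Figure D4:**
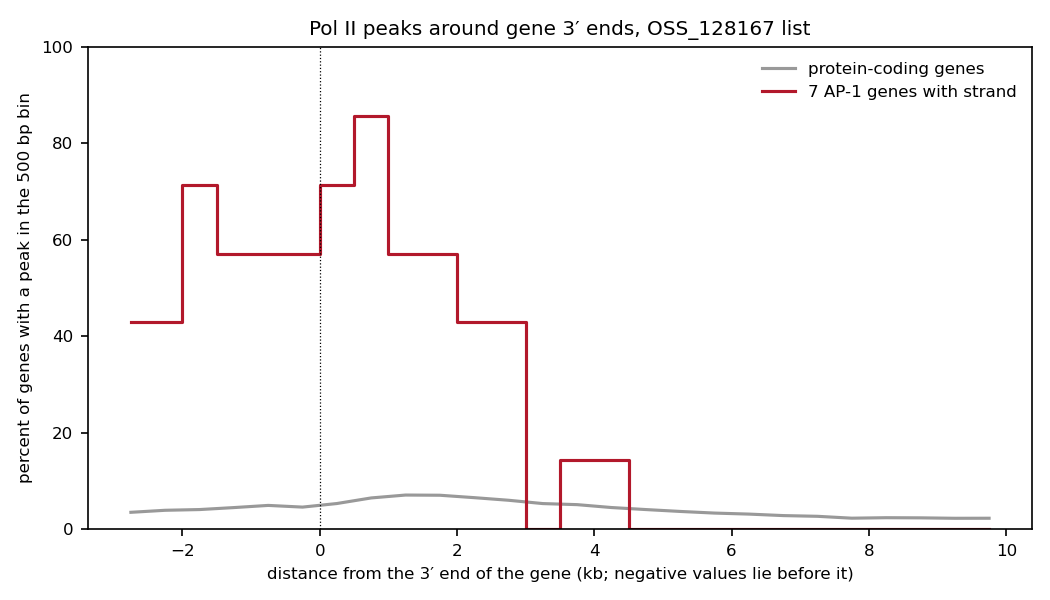
Percent of genes with a peak (y axis) in bins of 500 bp by distance from the 3′ end (x axis, kb), for the 7 AP-1 genes with a strand (red) and 17491 protein-coding genes (grey), OSS_128167 list. The members reach 85.7% in the bin from 500 to 1000 bp past the 3′ end, their highest bin, where all genes stand at 6.46%. There Fos and Junb count through peaks that begin before the gene start. Fosb counts through a peak with an FDR of 0.966 and Jund through a peak inside Iqcn. The members stand at 0% from 4500 bp on, and bins far before the end lie outside the shorter genes.

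Other genes around AP-1 had peaks by a wider rule, inside the gene or within 1 kb. Of 26 other genes of basic leucine zipper factors 14 had one in the OSS_128167 list, 7 of them with an FDR no higher than 0.05, against 37.8% and 11.5% of protein-coding genes. Ddit3, a stress-induced partner of C/EBP proteins, had a fold of 6.76 and 84.4% covered. Atf4, the effector of the integrated stress response, had a fold of 4.96 and 96.6% covered. Cebpg followed at 4.42, then Cebpb and Cebpd, equal at 3.83. These 3 belong to the C/EBP family.

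Of 22 regulators of AP-1 gene induction 14 (63.6%) had a peak by that rule in the OSS_128167 list, 5 of them with an FDR no higher than 0.05, where protein-coding genes stood at 37.8% and 11.5%. Mrtfa, a cofactor of serum response factor, had a fold of 3.95, and Srf itself 3.55. Dusp6, a dual-specificity phosphatase gene, had a fold of 3.61 and 61.2% covered. Of 20 known AP-1 targets 4 had a peak, a lower share than the 37.8% of all protein-coding genes, and all 4 at an FDR of at most 0.05, against 11.5%. They were Mmp14, a membrane-bound collagenase, at 4.57, Hmox1, haem oxygenase, at 4.21, Ccnd1, cyclin D1, at 3.95 and the hyaluronan receptor gene Cd44 at 3.75. The median covered share was 0.114% for the other factors, 0.907% for the regulators and 0 for the targets, against 0 for all protein-coding genes. None of these lists was matched to all genes for length, and all were chosen with earlier results of these data known. The share with a peak inside differs with length, at 34.4% of all genes and 18.0% of those no longer than Fosl2. The part of gene length in the list shares was not tested. In the untreated list these 3 lists had 0 genes with a peak, against 2.3% of protein-coding genes.

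The genes most like the AP-1 members in the OSS_128167 list were found by distance in the percentile ranks of covered share and highest fold, among the 7538 genes with a peak inside. The median ranks of the 7 members with a peak were 97.9 for covered share and 91.4 for fold. The 5 nearest genes were Elob, which encodes elongin B, Chmp2a, which encodes an ESCRT-III subunit, Ypel4, Pram1 and Trmt1, a tRNA methyltransferase gene. Elob had 59.5% covered and a fold of 4.02, and the other 4 had 33.7% to 39.9% covered and folds of 4.02 to 4.10. The likeness rests on 1 library.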

How the data were processed

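Per the submitters' processing notes, the authors used fastp and BWA with mm10. Which caller made the peaks, and how the inputs entered, is not given in the sources used here. Per the file headers, each of the 2 lists, 1 per Pol II library, holds 1 row per peak with its position, length, pileup, fold enrichment (ratio), p-value and FDR. The deposited fold is a value of the peak within its list, and what it was taken against (input or local background) is not given in the sources used here. The deposited p-value reached at most 0.00999 (OSS_128167) and 0.00956 (untreated), so both are permissive. The deposited pileup is a signal height, and no totals are held, so the depth is unknown.

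Genes came from RefSeq on GRCm38.p6, the assembly behind mm10, and strands and starts from its promoter table (17491 of 21883 protein-coding genes). Overlap needed 1 bp. The covered share is the part of a gene inside peaks. Shares of genes carry exact (Clopper-Pearson) 95% intervals. Conditions were not tested. Interval counts were tested on simulated peaks over 300 genes and differed 0 times from a direct search. Plots were drawn with matplotlib 3.10.9, and intervals came from scipy 1.17.1, with pandas 2.3.3 and numpy 2.4.6 under Python 3.11.15. Members and lists were chosen with earlier results of these data known. Named were all 8 members, up to 4 genes per list by fold (with 1 tie kept), genes under flanking peaks and the 5 genes most like the members. The value of 1 listed gene is not reported here.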

Additional observations from a re-analysis of the deposited data

How the results depend on the processing

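In the OSS_128167 list an FDR of at most 1e-05 left 2 members with a peak inside, against 1.1% of protein-coding genes. It left 2 with one inside or within 10 kb, against 2.18%. It also left 2 peaks inside members, 0 flanking peaks and 0 of those outside other genes. It gave a median covered share of 0%, a median highest fold of 8.5 over the 2 members left, and a Fos minus Jun difference of 0. An FDR of at most 0.05 left 9 peaks inside members, 4 flanking peaks and 3 of those outside other genes. It gave a median covered share of 10.6% and a median highest fold of 5.03, against 3.97 with all peaks, and the Fos minus Jun difference of medians reversed to 11.3 percentage points, against -13.2, since fewer peaks counted. That difference was -25.1 with gaps of at most 500 bp closed, which raised the median covered share to 53.7%, and -26.4 with Atf3 among the Fos members. Windows of 1 kb and 50 kb gave 5 and 27 flanking peaks, of which 4 and 12 lay outside other genes. Counting peaks by their centre left 6 members with a peak inside, since the centre of the long Junb peak lay past the 3′ end of Junb, and gave a median highest fold of 3.94. No share of all genes was computed for the centre rule. The start at the gene boundary in place of the promoter table, an alternative chosen after seeing the data, gave 3 members with a peak over it and not 4. Of protein-coding genes with a strand 1.46% had a peak over that boundary. Windows of 5 kb and 20 kb kept every count within 1.5 times, and all untreated values stayed at 0 under the alternatives run. No paired analysis was possible because each condition had 1 library. The low pileups, 5 to 15 for the OSS_128167 peaks within 10 kb other than the long ones over Fos and Junb, limit how far single weak peaks can be read.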

Other observations

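Between 10 and 50 kb from the AP-1 genes the OSS_128167 list held 18 peaks and the untreated list 0. Of the 18, 11 lay near Fosl1 and inside its neighbours, 1 in Efemp2, 5 in Mus81, 2 in Cfl1 and 3 in Snx32. These genes were chosen after their values were seen. Cfl1 encodes the actin-severing protein cofilin, and its higher peak had a fold of 4.43 and an FDR of 4.89e-07. The highest fold among the 18 was 4.78, at a peak in Mus81, a DNA endonuclease gene, 28482 bp from Fosl1. All 7 of these 18 peaks with an FDR of at most 0.05 were in this neighbourhood of Fosl1, against 0 near the other 7 members. These 7 peaks lay inside Mus81, Cfl1 or Snx32. The share of all protein-coding genes with such a peak at this distance was not computed, so the count is not a result about Fosl1.

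Of the 18 peaks 4 lay upstream and 3 downstream, and the 11 near Fosl1 had no side assigned. The upstream peaks were 1 each for Fos (10766 bp, fold 2.16), Fosb (10648 bp, fold 2.52), Atf3 (16345 bp, fold 2.67) and Junb (36662 bp, fold 2.71). All 4 upstream peaks lay in no annotated gene, and their FDRs ran from 0.377 to 0.966. The downstream peaks were those of Fosb (49031 bp), Junb (15721 bp) and Atf3 (36904 bp). No share of all protein-coding genes was computed for either side at this distance, so these counts are not a result about the members. Fosl2, Jun and Jund had no peak between 10 and 50 kb.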
